A study of Mus musculus with 10 samples.

Results

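Hematopoietic stem cells (HSCs) of 2 Id1 genotypes were compared in how their transcript levels differed between a normal and a stressed condition. For each gene the mean log2 level of the normal libraries was subtracted from that of the stressed libraries, which gives the response of a genotype. The response of WT-labelled HSCs was then subtracted from that of KO-labelled HSCs, which gives the response difference (the interaction of genotype and condition). A gene was kept when its level was above 2 on the log2 CPM scale (CPM, reads scaled to a common library total, where 2 is a level of 4 CPM) in at least 2 of the 10 libraries, and 11903 of the 20270 genes in the deposited table met this rule. A positive response difference means a more positive response in KO-labelled HSCs, and a negative one means a more negative response there.

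HSCs are the rare bone marrow cells that renew themselves and give rise to all blood cells. They are largely quiescent in undisturbed marrow and enter the cell cycle on demand, which calls for more ribosomes, mitochondrial activity and DNA synthesis. Id1 encodes an inhibitor of the E protein transcription factors, which it binds through its helix-loop-helix domain so that they cannot bind DNA.

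The 4 groups were KO-labelled stressed (Id1-/-, libraries A and B), KO-labelled normal (Id1-/-, A, B and C), WT-labelled stressed (Id1+/+, A and B) and WT-labelled normal (Id1+/+, A, B and C). All 10 libraries share the strain C57BL/6 and a transplantation: the cells were sorted by flow cytometry from the marrow of primary recipients of lineage-negative (Lin-) marrow cells of either genotype, with 4 weeks as the interval in the sample labels and 6 weeks in the series design. The labels define neither condition, give no age, and do not say whether the libraries of a group came from separate animals or pools. All p-values therefore measure the spread between these libraries only, which may be technical. The part of Id1 that is deleted is not given in the sources used here.

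On the deposited scale 1 CPM corresponded to an estimated 26 to 33 reads at low levels. The matching totals, 25700000 to 33000000 reads per library, are rough because the values had been quantile normalized. The HSC genes Kit, Ly6a, Slamf1, Procr, Cd34, Mecom and Hlf were detected in all 10 libraries, the lowest at a log2 level of 5.84 (Slamf1, KO-labelled normal B). The targeted gene went against its label: Id1 stood at log2 levels of 3.18 and 3.08 in KO-labelled stressed and 3.72, 3.40 and 3.27 in KO-labelled normal libraries, but at 0.36 and 2.13 in WT-labelled stressed and 0.43, 0.78 and 1.66 in WT-labelled normal libraries. Genotypes are named by their labels throughout for this reason, and the direction of each response difference rests on those labels. The response difference of Id1 itself was -0.62 (SE 0.725, limma adjusted p = 0.81). With WT-labelled stressed library B left out it was 0.26. In a principal component analysis the component with 28.3% of the variance separated the conditions, and the component with 15.8% separated the WT-labelled stressed libraries (-34.3 and -26.9) from the KO-labelled stressed ones (16.5 and 26.4). KO-labelled normal library A stood apart on the component with 12.4% (-40.0, against -15.4 to 16.5 in the other 9), and the WT-labelled stressed libraries A and B lay at opposite ends of the component with 9.7% (25.5 and -33.6).

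Few genes passed the test of a difference between the 2 responses, and nearly all genes called in both responses changed in the same direction. Of the 11903 genes, 7 (0.0588%) had an adjusted p under 0.05 for the response difference in limma: Igkc, Glis3, Fos and Hnrnpu with a more positive response in KO-labelled HSCs, and mt-Co1, Ddx17 and Gm23935 with a more negative one. Igkc is in this count only because its 2 KO-labelled stressed libraries took it past the filter, so it is described below without a test. At an unadjusted p under 0.05 there were 559 genes (4.7%) with a positive and 623 (5.23%) with a negative response difference. These unadjusted shares serve below only as the background for gene groups. The median response difference over all genes was -0.01 and the median SE was 0.23.

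Within WT-labelled HSCs, 260 genes (2.18%) rose and 284 (2.39%) fell under stress. Within KO-labelled HSCs, 365 (3.07%) rose and 362 (3.04%) fell. Both genotypes shared 275 of these calls, which is 50.6% of the WT-labelled and 37.8% of the KO-labelled ones. The direction was the same in 272 of them and opposite in 3, namely Fos, Hnrnpu and the ribosomal protein gene Rpl41. Across all genes the 2 responses, which share no library, had a Pearson r of 0.38 and a Spearman rho of 0.36 (genes are not independent replicates). The shares of all genes that rose or fell are the background for the counts of list members that rose or fell below.

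Of the 721 genes called in only 1 of the responses, 325 had an unadjusted p under 0.05 for the response difference and 4 had an adjusted one. Among the 1182 genes with an unadjusted p under 0.05 for the difference, 894 (75.6%) had responses of opposite sign, against 38.8% of all genes. Picking genes by a large difference between the responses itself favors opposite signs, so the higher share is a description only. A further 174 had the same sign with the larger response in KO-labelled HSCs, and 114 the same sign with the smaller response there.

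**Figure D1:**
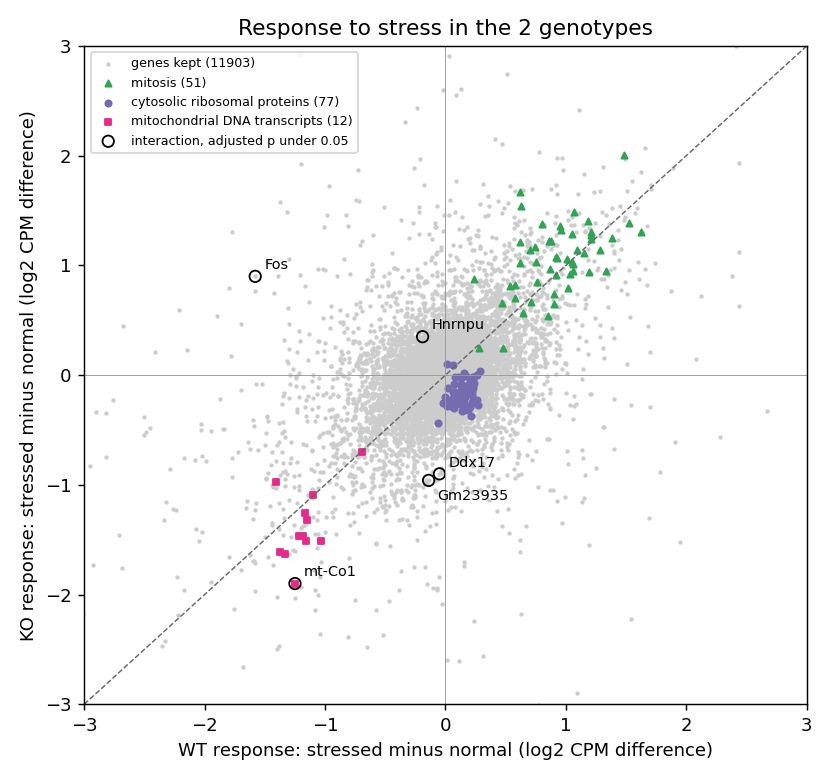
Response to stress in WT-labelled (x axis) and KO-labelled HSCs (y axis), each as the log2 CPM difference of stressed minus normal group means, with 1 point per kept gene and equal responses on the dashed line. Mitosis genes lie at the upper right in both genotypes, mitochondrial transcripts at the lower left, and ribosomal protein genes mostly right of and below the origin; 77 genes beyond 3 on either axis are not shown, among them the called Igkc and Glis3.

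The number of calls depended on single libraries. Leaving out KO-labelled stressed library A gave 16 genes with an adjusted p under 0.05 for the response difference, and leaving out WT-labelled stressed library B gave 18. It was 3 without KO-labelled normal C, and 2 without WT-labelled stressed A or without any 1 of the WT-labelled normal libraries. The calls of the WT-labelled response numbered 287 and 305 without stressed library A or B, and 302, 333 and 318 without normal library A, B or C. Those of the KO-labelled response numbered 300 and 285 without stressed library A or B.

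The immediate early genes encode transcription factors and signal regulators that are transcribed within minutes of a stimulus, and Fos, a subunit of the AP-1 transcription factor, was 1 of the 3 genes called in both responses with opposite signs. Fos (ENSMUSG00000021250.13, chromosome 12, 85473890 to 85477273, plus strand, mm10) stood at log2 levels of 4.73, 4.88 and 4.73 in WT-labelled normal libraries and 3.11 and 3.29 in WT-labelled stressed ones. It stood at 3.27, 2.59 and 3.16 in KO-labelled normal libraries and 3.93 and 3.89 in KO-labelled stressed ones. The stressed libraries lay below all normal ones in WT-labelled HSCs and above all normal ones in KO-labelled HSCs, with no overlap in either genotype. Fos fell by 1.58 in WT-labelled HSCs (SE 0.237, limma adjusted p = 0.0022) and rose by 0.90 in the KO-labelled cells (SE 0.237, adjusted p = 0.041 in limma), so that the responses differed by 2.49 (SE 0.335; adjusted p = 0.025 in limma). The starting levels differed too: in normal HSCs Fos was 1.77 lower in KO-labelled libraries (a difference of -1.77, limma adjusted p = 0.00075). The response difference stayed between 2.28 and 2.62 when any library was left out, but its adjusted p rose to 0.063 and 0.068 without KO-labelled stressed A or B, 0.073 without WT-labelled stressed A, and 0.11, 0.088 and 0.11 without WT-labelled normal A, B or C.

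The Fos promoter is shown because cAMP-responsive activation of this gene runs through such elements. The stretch from -150 to -51 relative to the RefSeq start (base -1 precedes the start; GRCm38.p6, the build of mm10, plus strand, chr12:85473740-85473839) holds TGACG, the core of the cAMP response element, at -129 and -66, in capitals.
Fos: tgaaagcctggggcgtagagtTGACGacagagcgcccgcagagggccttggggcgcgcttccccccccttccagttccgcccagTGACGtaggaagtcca
Searched on both strands of the 300 bases of an entry (250 before and 50 after the start), TGACG was present in 9 of the 16 immediate early genes with an entry (Btg2, Csrnp1, Dusp1, Fos, Fosb, Junb, Maff, Nr4a1 and Nr4a2) and in 36.4% of the 9012 kept genes with an entry. The match is a description of the sequence only.

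Of the 18 immediate early genes kept (25 of 26 were in the table), 14 had a positive response difference, with a median of 0.36. Fos alone was called. At an unadjusted p under 0.05, 6 had a positive difference (Fos, Jun, Egr1, Fosb, Dusp1 and Ier5) and 1 a negative one (Ier3, -0.55). The median response was -0.16 in WT-labelled and 0.08 in KO-labelled HSCs, and leaving out any library kept the median difference between 0.27 and 0.37.

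Jun, the AP-1 partner of Fos, stood at log2 levels of 6.97, 6.89 and 6.83 in WT-labelled normal, 7.05 and 7.34 in WT-labelled stressed, 6.81, 6.37 and 6.64 in KO-labelled normal and 7.64 and 7.63 in KO-labelled stressed libraries. The KO-labelled stressed libraries were the highest of the 10. Jun rose in KO-labelled HSCs (1.03, limma adjusted p = 0.00034), its response in WT-labelled HSCs was 0.30 (limma adjusted p = 0.20), and the response difference of 0.73 (SE 0.175) did not pass (limma adjusted p = 0.20). Egr1, a zinc finger factor linked to HSC quiescence, fell in both genotypes, by 1.40 in WT-labelled and by 0.64 in KO-labelled HSCs, with a response difference of 0.76 (SE 0.199, limma adjusted p = 0.23). Fosb, a relative of Fos, had responses of -0.61 and 1.01, with a difference of 1.62 (SE 0.579, limma adjusted p = 0.38).

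**Figure D2:**
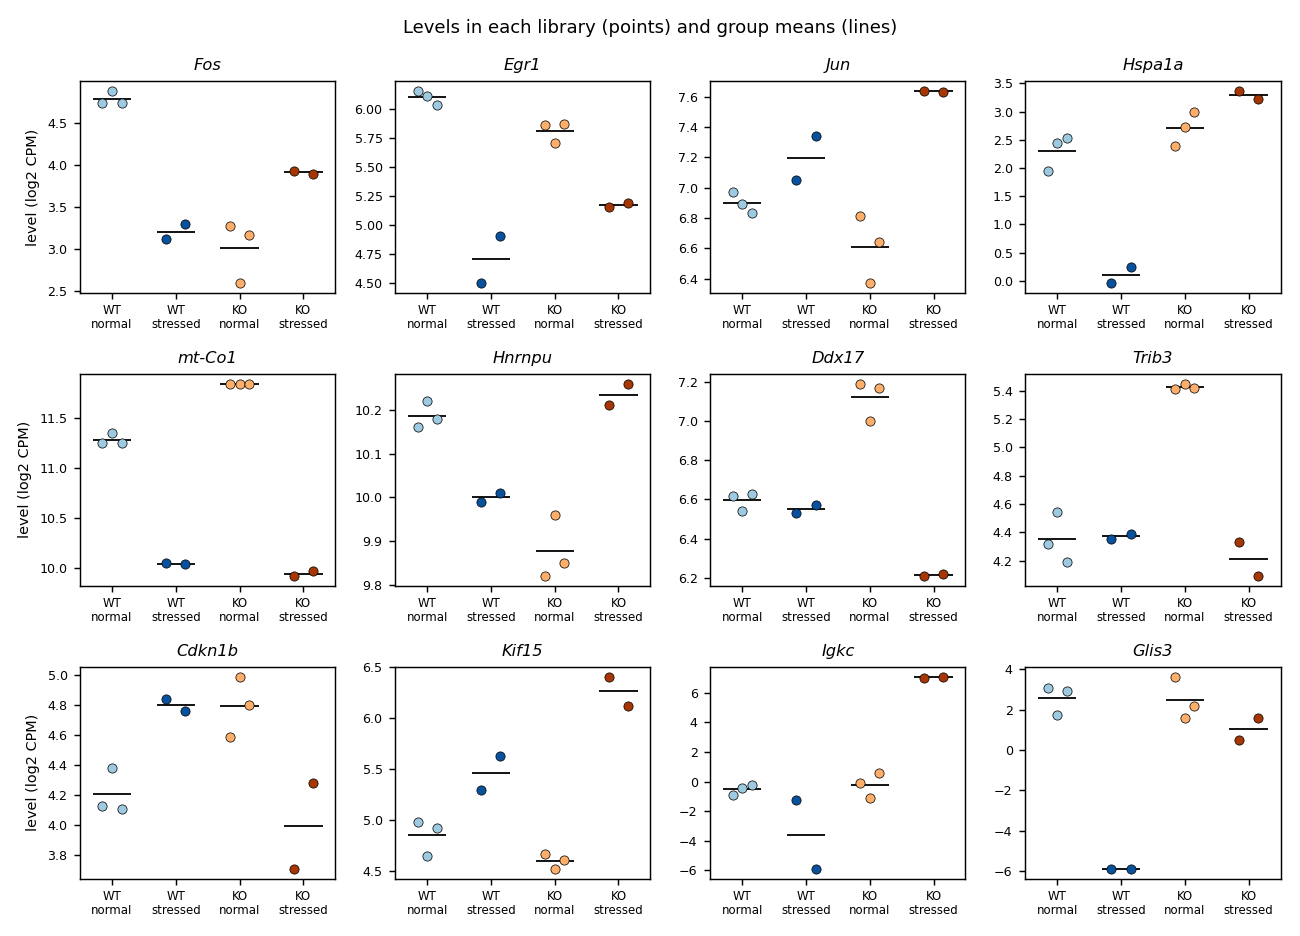
Log2 CPM level (y axis, a separate scale for each gene) of 12 genes in each library (points) with group means (lines), by genotype and condition (x axis); -5.90 stands for 0 reads. Fos was lower under stress in WT-labelled and higher in KO-labelled libraries, mt-Co1 was lower under stress in both, and Igkc was high in the KO-labelled stressed libraries alone.

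Heat shock chaperones, which refold proteins under proteotoxic stress, split by gene. The inducible Hsp70 gene Hspa1a stood at log2 levels of 1.95, 2.44 and 2.53 in WT-labelled normal and -0.04 and 0.24 in WT-labelled stressed libraries, against 2.39, 2.72 and 2.99 in KO-labelled normal and 3.37 and 3.22 in KO-labelled stressed ones. The WT-labelled stressed libraries were the lowest and the KO-labelled stressed ones the highest of the 10. Hspa1a fell by 2.21 in WT-labelled HSCs (SE 0.356, limma adjusted p = 0.0035), its response in KO-labelled HSCs was 0.59 (limma adjusted p = 0.39), and the response difference of 2.80 (SE 0.504) missed the threshold (limma adjusted p = 0.077). Its neighbor and near-identical copy Hspa1b had a WT-labelled response of -1.23 (limma adjusted p = 0.020), a KO-labelled response of 0.21 and a difference of 1.44 (SE 0.382, limma adjusted p = 0.24). The split of reads between the 2 copies is uncertain.

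Both promoters are shown because the copies share the heat shock element (GAANNTTC, in capitals, first base at -104) and nearly all of the sequence around it. The stretches run from -130 to -71 on the minus strand of GRCm38.p6, at chr17:34972227-34972286 for Hspa1a and chr17:34959309-34959368 for Hspa1b.
Hspa1a: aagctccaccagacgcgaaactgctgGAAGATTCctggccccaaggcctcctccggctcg
Hspa1b: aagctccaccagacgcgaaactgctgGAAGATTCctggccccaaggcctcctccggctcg
The RefSeq promoter entries of the pair were identical at 296 of 300 positions. GAANNTTC, on either strand, was present in 9 of the 17 heat shock chaperone genes with an entry and in 7.0% of the 9012 kept genes with an entry.

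Most heat shock chaperones had a response difference of the opposite sign to that of this pair. Of 21 kept members, 16 had a negative difference and 5, the pair among them, a positive one, with a list median of -0.10. Unadjusted, at a p under 0.05, 2 were positive (Hspa1a and Hspa1b) and 6 negative, among them the Hsp110 gene Hsph1 (-0.64, SE 0.18, limma adjusted p = 0.25) and the Hsp40 co-chaperone gene Dnaja1 (-0.35). Both of these fell in KO-labelled HSCs, by 0.76 and by 0.42, and had WT-labelled responses of -0.11 and -0.07. The unfolded protein response, the endoplasmic reticulum's counterpart, had a median of -0.09 over 22 members, with 1 negative (Creld2, -0.44) and none positive at an unadjusted p under 0.05.

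Genes of the integrated stress response, which follows phosphorylation of eIF2 alpha, moved in single members. Trib3, a pseudokinase induced by ATF4 and CHOP, stood at log2 levels of 5.41, 5.45 and 5.42 in KO-labelled normal libraries and at 4.33 and 4.09 in KO-labelled stressed ones. In WT-labelled HSCs it stood at 4.32, 4.54 and 4.19 in normal and 4.35 and 4.39 in stressed libraries. The KO-labelled normal libraries thus lay above the other 7. Trib3 fell by 1.23 in KO-labelled HSCs (limma adjusted p = 0.00075), and the response difference of -1.25 (SE 0.234) missed the threshold (limma adjusted p = 0.087). Ddit3, which encodes CHOP, had a difference of -0.74, and Slc7a5, a leucine transporter gene, rose in KO-labelled HSCs (0.77, limma adjusted p = 0.00068) with a response difference of 0.69 (limma adjusted p = 0.14). Over the 23 kept members the median was -0.05, with 1 positive and 3 negative at an unadjusted p under 0.05.

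Ribosomal protein genes, which encode the protein subunits of the cytosolic ribosome, had small response differences of nearly uniform sign. Of the 77 kept members, 75 had a negative difference and 63 were negative at an unadjusted p under 0.05, none positive, where 5.23% of all genes were negative at that threshold. No member had an adjusted p under 0.05. The median difference was -0.30, made up of a median response of 0.14 in WT-labelled and -0.16 in KO-labelled HSCs, and leaving out any library kept it between -0.33 and -0.28. In WT-labelled HSCs 4 members rose and none fell, and in KO-labelled HSCs 20 fell and none rose. In normal HSCs the median member was 0.41 higher in KO-labelled libraries, and in stressed HSCs 0.11 higher.

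Rpl41, a large subunit protein gene, stood at log2 levels of 7.91, 7.91 and 7.88 in WT-labelled normal and 8.14 and 8.18 in WT-labelled stressed libraries, and at 8.53, 8.56 and 8.68 in KO-labelled normal and 8.35 and 8.35 in KO-labelled stressed ones. The 4 groups did not overlap, and the stressed groups lay between the normal ones. Rpl41 rose by 0.26 in WT-labelled HSCs (limma adjusted p = 0.032) and fell by 0.23 in KO-labelled HSCs (limma adjusted p = 0.041), with a response difference of -0.49 (SE 0.087, limma adjusted p = 0.071). Rpl36 and Rps23 had differences of -0.49 and -0.47 at the same adjusted p of 0.071 in limma, Rpl17 had -0.48 (limma adjusted p = 0.088), and Fau, which encodes a fusion of a ubiquitin-like protein with ribosomal protein S30, had the most negative of the list (-0.58, limma adjusted p = 0.10). Many ribosomal protein genes have processed pseudogenes that can share their reads, so their levels are uncertain to that extent.

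Messenger RNAs of ribosomal proteins typically begin with a C followed by a run of pyrimidines, through which their translation is controlled together. The 30 bases around the RefSeq start (15 before and 15 after, GRCm38.p6) are shown for 6 members with an entry. They have a small p for the response difference, and the windows show which of them carry such a run in the genome sequence. Some members with a small p, Rpl17 among them, are not shown. Capitals mark a run of at least 6 C or T that begins with a C within 3 bases of the start, read on the coding strand. The windows lie at chr10:128549154-128549183 (Rpl41, minus strand), chr13:90923107-90923136 (Rps23, plus), chr19:6057932-6057961 (Fau, plus), chr7:24884661-24884690 (Rps19, plus), chr15:5116598-5116627 (Rpl37, plus) and chr1:72711245-72711274 (Rpl37a, plus).
Rpl41: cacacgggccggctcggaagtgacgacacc
Rps23: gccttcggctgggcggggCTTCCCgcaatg
Fau: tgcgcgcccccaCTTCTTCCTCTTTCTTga
Rps19: ccgcacggtgagtgagggctctgggtcgcg
Rpl37: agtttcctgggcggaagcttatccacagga
Rpl37a: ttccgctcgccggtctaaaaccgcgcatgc
Such a run was present in 24 of the 56 kept ribosomal protein genes with an entry (42.9%) and in 864 of the 9012 kept genes with an entry (9.59%). The share depends on how exactly the annotated start matches the transcribed one, and 4 of the 6 windows shown hold no run by this rule.

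Other parts of the translation machinery were mixed. Over 41 ribosome biogenesis genes the median response difference was -0.01, with 3 positive and 2 negative at an unadjusted p under 0.05. Ncl, which encodes nucleolin, a nucleolar protein of ribosomal RNA processing, rose in KO-labelled HSCs (0.32, limma adjusted p = 0.00042) with a WT-labelled response of -0.01 and a response difference of 0.32 (SE 0.056, limma adjusted p = 0.071). Over 34 translation factors the median was -0.05. Eef1a1, the most abundant elongation factor gene, rose in both genotypes, by 0.53 in WT-labelled and by 0.95 in KO-labelled HSCs. Its response difference was 0.42 (limma adjusted p = 0.17), and between 0.32 and 0.50 when any library was left out. Its direction was thus opposite to that of the ribosomal protein genes.

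**Figure D3:**
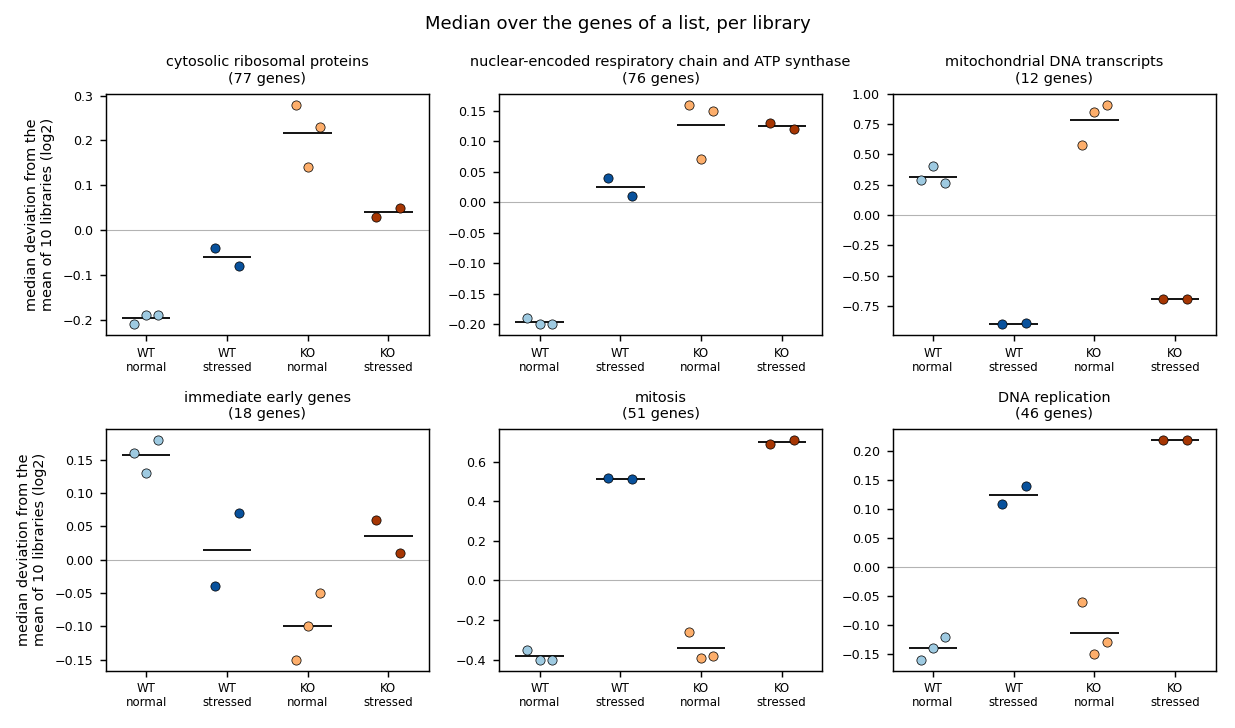
Median over the kept members of 6 gene lists in each library (points) with group means (lines), as the deviation of the log2 level from each gene's mean over the 10 libraries (y axis, a separate scale for each list), by genotype and condition (x axis). Ribosomal protein genes were highest in KO-labelled normal and lowest in WT-labelled normal libraries, with the stressed libraries between them.

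Transcripts of the mitochondrial genome fell in both genotypes, and 1 of them fell further in KO-labelled HSCs. Of the 12 kept members, 11 fell in WT-labelled and 10 in KO-labelled HSCs, with median responses of -1.17 and -1.47. The cytochrome c oxidase subunit gene mt-Co1 (ENSMUSG00000064351.1, mitochondrial chromosome, 5328 to 6872, plus strand, mm10) stood at log2 levels of 11.25, 11.35 and 11.25 in WT-labelled normal and 10.05 and 10.04 in WT-labelled stressed libraries. In KO-labelled HSCs it stood at 11.85 in all 3 normal libraries and at 9.92 and 9.97 in the stressed ones. The groups did not overlap: the KO-labelled normal libraries were the highest and the KO-labelled stressed ones the lowest of the 10.

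The response of mt-Co1 was -1.25 in WT-labelled and -1.90 in KO-labelled HSCs (SE 0.035 each), a response difference of -0.66 (SE 0.049, limma adjusted p = 0.0001). Tied values such as those of the KO-labelled normal libraries arise from the quantile normalization, so the SE may understate the spread. Without a trend of the variance with the mean level the adjusted p was 0.13. At an unadjusted p under 0.05, mt-Nd4 (-0.47), mt-Nd5 (-0.25) and mt-Nd2 (-0.35), which encode subunits of complex I, also had negative differences, and no member had a positive one. The median difference was -0.24, and between -0.34 and -0.17 when any library was left out. Gm29216, a nuclear pseudogene on chromosome 1 named after its values were seen, had responses of -1.08 and -1.96.

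Nuclear genes of the respiratory chain and ATP synthase had a median response above 0 in WT-labelled and close to 0 in KO-labelled HSCs. Over 76 members the median response was 0.22 in WT-labelled and -0.01 in KO-labelled HSCs, a median difference of -0.22 (between -0.25 and -0.20 when any library was left out). In WT-labelled HSCs 9 members rose, and in KO-labelled HSCs 2 rose; none fell in either. The unadjusted p was under 0.05 for 23 members; all of these had a negative difference, and none passed the adjusted test. Cox8a and Cox6b1, both encoding subunits of cytochrome c oxidase, rose in WT-labelled HSCs (0.28 and 0.36) and had KO-labelled responses of -0.10 and 0.00. Their response differences were -0.38 and -0.36 (limma adjusted p = 0.22 and 0.25).

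Mitochondrial ribosomal proteins (76 members, median -0.13, 6 negative and none positive at an unadjusted p under 0.05) and the proteasome (34 members, median -0.18, 6 negative and 1 positive) had the same sign. Over all genes 5.23% were negative and 4.7% positive at that threshold. Polg, which encodes the polymerase of mitochondrial DNA, had a response difference of 0.77 (SE 0.166, limma adjusted p = 0.16), with responses of -0.36 and 0.40. Autophagy and lysosome genes had a median of -0.12 over 38 members, with 7 negative and none positive at that threshold. Gabarap, a gene of the autophagosome membrane, fell in KO-labelled HSCs (-0.41, limma adjusted p = 0.026) and had a response of 0.15 in WT-labelled HSCs. Of 26 antioxidant genes 6 were negative and none positive, among them the peroxidase genes Prdx2 (-0.41) and Gpx1 (-0.30).

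**Figure D4:**
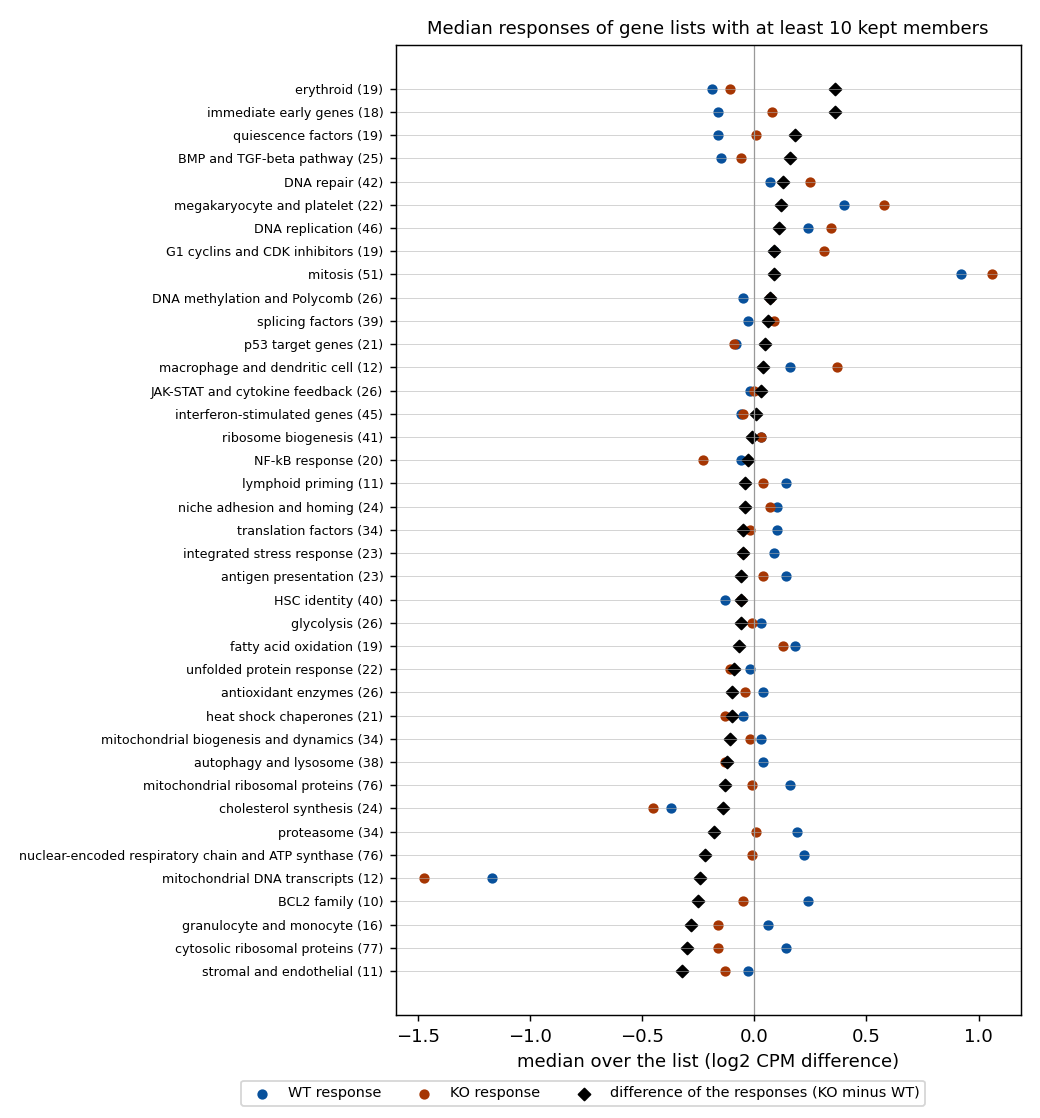
Median WT-labelled response (blue), KO-labelled response (brown) and response difference (black diamonds), in log2 CPM (x axis), for the gene lists with at least 10 kept members (y axis, number kept in brackets). Mitosis genes had the most positive and mitochondrial DNA transcripts the most negative median responses in both genotypes, while the medians of the difference lay between -0.32 and 0.36.

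Gene length moved with these differences. Genes were sorted by the union length of their annotated exons into 5 bins of equal size, and the median response difference was -0.14, -0.04, 0.02, 0.04 and 0.08 from the shortest bin (57 to 2476 bases) to the longest (7577 to 123179 bases). The share of genes with a negative difference at an unadjusted p under 0.05 was 10.8% in the shortest and 2.19% in the longest bin, and that with a positive one was 1.51% and 7.57%. The median WT-labelled response ran from 0.12 to -0.07 over the bins, and the KO-labelled one from -0.02 to 0.01. Ribosomal protein genes had a median length of 1781 bases against 4446 for all genes, and 53 of the 77 lay in the shortest bin. The 2327 genes of that bin that encode no ribosomal protein had a median difference of -0.13.

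With the length trend removed, an alternative chosen after seeing the data, the median difference of the ribosomal protein genes was -0.19, and 36 of 77 were negative at an unadjusted p under 0.05. The respiratory chain median was then -0.08 and that of the mitochondrial transcripts -0.03, while the immediate early gene median was 0.40. Mitochondrial ribosomal proteins had a median of -0.05 and the proteasome one of -0.09. The response difference of mt-Co1 was -0.51 (limma adjusted p = 0.0067), that of Fos 2.57 (limma adjusted p = 0.014) and that of Hnrnpu 0.47 (limma adjusted p = 0.0069). What sets the relation with length was not tested.

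**Figure D5:**
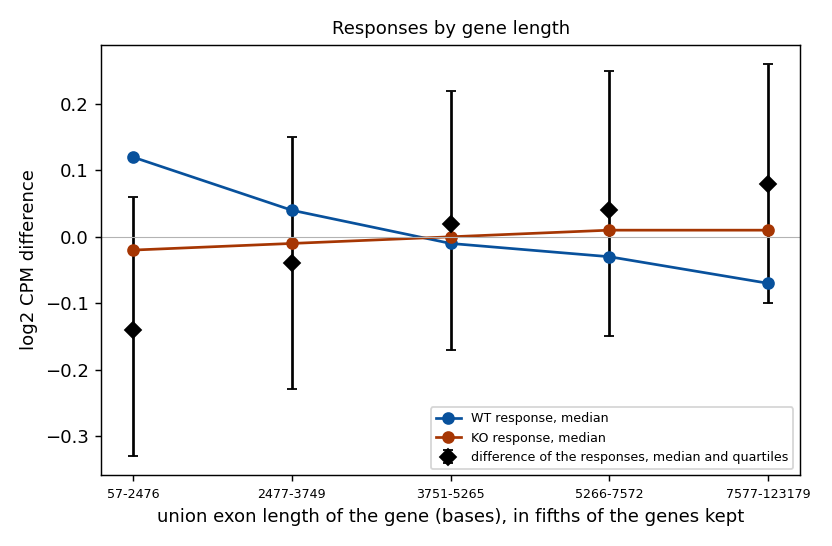
Median response in WT-labelled (blue) and KO-labelled HSCs (brown) and the response difference (black diamonds, bars from the lower to the upper quartile), in log2 CPM (y axis), for 5 bins of kept genes by exon length (x axis). The median difference went from -0.14 in the shortest to 0.08 in the longest bin.

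RNA-binding proteins of splicing contained 2 of the 7 calls, in opposite directions. Hnrnpu (ENSMUSG00000039630.10, chromosome 1, 178321108 to 178337797, minus strand, mm10) encodes a nuclear ribonucleoprotein that binds pre-mRNA and chromatin. It stood at log2 levels of 10.16, 10.22 and 10.18 in WT-labelled normal, 9.99 and 10.01 in WT-labelled stressed, 9.82, 9.96 and 9.85 in KO-labelled normal and 10.21 and 10.26 in KO-labelled stressed libraries. Stressed and normal libraries did not overlap in either genotype. It fell by 0.19 in WT-labelled HSCs (limma adjusted p = 0.032) and rose by 0.35 in KO-labelled HSCs (limma adjusted p = 0.00045), a response difference of 0.54 (SE 0.064, limma adjusted p = 0.0084). The adjusted p was 0.058 without KO-labelled stressed library B and 0.052 without WT-labelled stressed library A.

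Ddx17 (ENSMUSG00000055065.6, chromosome 15, 79527736 to 79546741, minus strand, mm10) encodes a DEAD-box RNA helicase of splicing and microRNA processing. It stood at log2 levels of 7.19, 7.0 and 7.17 in KO-labelled normal and 6.21 and 6.22 in KO-labelled stressed libraries, and at 6.62, 6.54 and 6.63 in WT-labelled normal and 6.53 and 6.57 in WT-labelled stressed ones. The WT-labelled groups overlapped, whereas the KO-labelled groups lay above and below them. It fell by 0.90 in KO-labelled HSCs (limma adjusted p = 9.6e-05), its WT-labelled response was -0.05, and the response difference was -0.86 (SE 0.131, limma adjusted p = 0.044). Leaving out any 1 library other than KO-labelled normal B gave an adjusted p between 0.070 and 0.16, and the difference lay between -0.92 and -0.82 over all 10 such fits. Over the 39 splicing factors the median difference was 0.06, with 7 positive and 1 negative at an unadjusted p under 0.05. Ptbp1, a repressor of exon inclusion, rose in KO-labelled HSCs (0.30, limma adjusted p = 0.012) with a difference of 0.40 (limma adjusted p = 0.16).

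Gm23935 (ENSMUSG00000076258.1, chromosome 16, 11144125 to 11144181, plus strand, mm10), a predicted gene annotated as a miRNA of 57 bases and named because it is among the 7 calls, stood at log2 levels of 8.74, 8.36 and 8.57 in KO-labelled normal and 7.58 and 7.61 in KO-labelled stressed libraries. It stood at 7.90, 7.93 and 7.83 in WT-labelled normal and 7.75 and 7.74 in WT-labelled stressed libraries. The KO-labelled stressed libraries were the lowest and the KO-labelled normal ones the highest of the 10. Its response difference was -0.82 (SE 0.129, limma adjusted p = 0.049), and the adjusted p was 0.27 with the length trend removed. Without any 1 library other than KO-labelled normal A or B it was between 0.093 and 0.16.

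Of the immunoglobulin genes only Igkc was among the calls. Igkc (ENSMUSG00000076609.2, chromosome 6, 70726435 to 70726966, plus strand, mm10), the constant region of the kappa light chain, stood at log2 levels of 7.02 and 7.09 in KO-labelled stressed libraries. It stood at -0.11, -1.13 and 0.58 in KO-labelled normal, -0.88, -0.42 and -0.23 in WT-labelled normal and -1.27 in WT-labelled stressed A, and had 0 reads in WT-labelled stressed B. The KO-labelled stressed libraries lay far above the other 8, and the gene was kept through them alone. It had to differ for this reason, so its values are a description and no test is read from them. The response difference was 8.94 with the library at 0 reads set to a floor of 3 reads.

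Jchain, the joining chain of secreted antibodies, stood at 4.74 and 4.79 in KO-labelled stressed libraries and between -1.99 and 0.03 in the other 8, and was likewise kept through the former alone. The heavy chain genes Ighg2b (6.77 and 7.0) and Igha (6.09 and 6.13) had reads in the KO-labelled stressed libraries and 0 reads in each of the other 8, so no response difference is given for them.

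The marker list for B cells and plasma cells moved with these genes. Of its 29 genes, 22 were in the table and 9 were kept, of which Igkc, Jchain, Ighg2b and Igha passed the filter only through the KO-labelled stressed libraries. The summed level of the listed genes was 618 and 616 CPM in KO-labelled stressed libraries, 289 to 322 CPM in KO-labelled normal, 245 and 278 CPM in WT-labelled stressed and 282 to 304 CPM in WT-labelled normal ones. All 25 immunoglobulin genes in the table summed to 498 and 531 CPM in KO-labelled stressed libraries and to 29.9 to 47.5 CPM in the other 8. Of the 9 kept genes, 7 had a positive and 2 a negative response difference. Sdc1 stood at 3.4 and 3.62 in KO-labelled stressed and 2.45 to 2.89 in KO-labelled normal libraries. Ighm stood at 2.47 and 2.7 against 1.3 to 2.16. In WT-labelled HSCs the stressed libraries of both genes lay below all normal ones. Both genes also exceeded the filter level in other libraries. The plasma cell genes Mzb1, Tnfrsf17 and Irf4 were below the filter, each with 0 reads in 1 of the 2 KO-labelled stressed libraries. Xbp1, a transcription factor gene of secretory cells, stood between 7.43 and 7.85 in all 10 libraries. In bulk RNA a change in the number of cells of a type and a change in RNA per cell cannot be told apart, and the part of such cells in the other response differences was not tested.

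Glis3 (ENSMUSG00000052942.13, chromosome 19, 28258851 to 28680077, minus strand, mm10), a Krüppel-like zinc finger factor, was called at low levels. It stood at log2 levels of 3.09, 1.71 and 2.90 in WT-labelled normal, 3.64, 1.59 and 2.17 in KO-labelled normal and 0.51 and 1.58 in KO-labelled stressed libraries, whereas both libraries of the WT-labelled stressed group had 0 reads and were thus the lowest. With these 2 libraries at a floor of 3 reads each, the WT-labelled response was a fall by at least 5.67 on the log2 scale, the KO-labelled response was -1.43 (limma adjusted p = 0.31), and the response difference was at least 4.24. The call (limma adjusted p = 0.039) was lost with the floor (0.15), with a pseudocount of 1 CPM (0.46), and without KO-labelled stressed B (0.081), KO-labelled normal B or C (0.069 and 0.096), WT-labelled stressed A (0.072) or WT-labelled normal A, B or C (0.16, 0.088 and 0.15).

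Most mitosis genes rose in both genotypes, and none passed the adjusted test of the response difference. Of 51 mitosis genes, 40 rose in WT-labelled and 46 in KO-labelled HSCs, none fell, and the median responses were 0.92 and 1.06. The median response difference was 0.09, and between 0.02 and 0.15 when any library was left out. At an unadjusted p under 0.05, 6 were positive (Kif15, Cdca8, Bub1b, Kif23, Incenp and Ect2), and none negative. Kif15, a spindle motor gene, stood at log2 levels of 4.98, 4.65 and 4.92 in WT-labelled normal, 5.30 and 5.63 in WT-labelled stressed, 4.67, 4.52 and 4.61 in KO-labelled normal and 6.41 and 6.12 in KO-labelled stressed libraries. Its KO-labelled stressed libraries were the highest of the 10, and its response difference was 1.05 (SE 0.233, limma adjusted p = 0.16).

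Of 46 DNA replication genes, 4 rose in WT-labelled and 16 in KO-labelled HSCs, with median responses of 0.24 and 0.34 and a median difference of 0.11. Mcm2 and Mcm3, subunits of the replicative helicase, rose in KO-labelled HSCs (0.28 and 0.25) with WT-labelled responses of -0.08 and -0.04. Their response differences were 0.37 and 0.28 (limma adjusted p = 0.21 and 0.28). Of 42 DNA repair genes, 3 were positive and none negative at an unadjusted p under 0.05, where 4.7% of all genes were positive. These were Fanci (1.30), Chek1 (0.73) and Lig4 (2.12), with limma adjusted p = 0.32, 0.38 and 0.41. Lig4 had low levels, 2.19 and 0.69 in KO-labelled stressed and -0.60 and 1.04 in WT-labelled stressed libraries. Fanci, of the Fanconi anemia pathway, and Chek1, a checkpoint kinase gene, rose in KO-labelled HSCs (1.44 and 0.75), and their WT-labelled responses were 0.14 and 0.02.

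Of 19 kept G1 cyclins and CDK inhibitors, 2 rose and 2 fell in WT-labelled HSCs, and 4 rose and 3 fell in KO-labelled HSCs. The median difference was 0.09, with 3 positive and 2 negative at an unadjusted p under 0.05 and none past the adjusted test. Cdkn1b, which encodes the CDK inhibitor p27, stood at log2 levels of 4.59, 4.99 and 4.80 in KO-labelled normal and 3.71 and 4.28 in KO-labelled stressed libraries. In WT-labelled HSCs it stood at 4.13, 4.38 and 4.11 in normal and 4.84 and 4.76 in stressed libraries. Stressed libraries lay below normal ones in KO-labelled and above them in WT-labelled HSCs. Cdkn1b fell by 0.80 in KO-labelled HSCs (limma adjusted p = 0.038), its WT-labelled response was 0.59 (limma adjusted p = 0.13), and the response difference was -1.39 (SE 0.293, limma adjusted p = 0.14). Cdkn2c, which encodes the inhibitor p18, rose in WT-labelled HSCs (1.53) and had a KO-labelled response of 0.53, with a difference of -1.0. Ccnd1, a G1 cyclin gene, rose in KO-labelled HSCs (0.75) and had a WT-labelled response of -0.08. Over the 19 quiescence factors the median difference was 0.18, with 1 positive and 4 negative at an unadjusted p under 0.05.

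None of the HSC identity genes passed the adjusted test of the response difference. Of 40 kept members, 8 fell and 3 rose in WT-labelled HSCs, where 2.39% of all genes fell and 2.18% rose. In KO-labelled HSCs 11 fell and 1 rose, where 3.04% of all genes fell and 3.07% rose. The median difference was -0.06 (between -0.11 and -0.01 when any library was left out), with 4 positive and 6 negative at an unadjusted p under 0.05. Procr, a surface receptor gene of long-term HSCs, fell in KO-labelled HSCs (-0.68, limma adjusted p = 0.0066), had a WT-labelled response of -0.18 and a difference of -0.50 (limma adjusted p = 0.39). Mllt3, a regulator of HSC maintenance, fell in both, by 0.52 and by 0.78. Pdzk1ip1, a membrane protein gene of HSCs, also fell in both, by 0.52 and by 0.84, with a difference of -0.32 (limma adjusted p = 0.37).

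None of the members of the megakaryocyte, granulocyte and erythroid marker lists passed the adjusted test of the response difference. Of 22 kept megakaryocyte and platelet genes, 11 rose in WT-labelled and 15 in KO-labelled HSCs, with a median difference of 0.12 (0 without WT-labelled stressed library B, 0.07 without KO-labelled stressed A and between 0.09 and 0.16 without any other), and at an unadjusted p under 0.05, 4 were positive and 2 negative. Plek, a platelet signaling substrate gene, rose by 0.51 and by 1.01 in the 2 genotypes (a difference of 0.50, limma adjusted p = 0.28). The summed level of that list was 5020 and 5040 CPM in WT-labelled stressed, 5110 and 5250 CPM in KO-labelled stressed and 4030 to 4360 CPM in normal libraries. Of 16 kept granulocyte and monocyte genes, 2 were positive and 5 negative at that threshold, with summed levels of 778 to 994 CPM over the 10 libraries. The median was -0.28, and -0.43 without WT-labelled normal A, -0.42 without WT-labelled stressed B and between -0.36 and -0.23 without any other library. Of 19 kept erythroid genes, 3 were positive (Car1, Slc25a37 and Epor) and none negative at that threshold. Without a threshold 12 had a positive and 7 a negative difference. The median difference was 0.36, and 0.19 without WT-labelled normal C, 0.21 without KO-labelled normal B and between 0.25 and 0.38 without any other library. Median responses were -0.19 in WT-labelled and -0.11 in KO-labelled HSCs. The summed level was 1940 and 1920 CPM in WT-labelled stressed, 1920 and 1910 CPM in KO-labelled stressed and 2020 to 2130 CPM in normal libraries. Over 45 interferon-stimulated genes the median was 0.01, with 2 positive and 3 negative. Ifitm1, an interferon-induced membrane protein gene, fell in both genotypes, by 0.63 and by 1.07 (a difference of -0.44, SE 0.076, limma adjusted p = 0.071).

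Among the genes closest to the threshold that belong to no list above, Lama5, a laminin chain gene, fell by 1.80 in WT-labelled HSCs. Its KO-labelled response was 0.79 and its difference 2.59 (SE 0.484, limma adjusted p = 0.087). That difference lay between 2.07 and 3.12 when any library was left out. Xist, the noncoding RNA of X inactivation, stood at log2 levels of 6.19 and 5.80 in WT-labelled stressed and between 6.63 and 7.18 in the other 8 libraries, with a difference of 1.11 (SE 0.20, limma adjusted p = 0.077). Flna, which encodes the actin crosslinker filamin A, had responses of -0.22 and 0.36 and a difference of 0.58 (limma adjusted p = 0.10). With any library left out, the difference of Flna was between 0.46 and 0.69. Rn18s-rs5, a gene related to 18S ribosomal RNA, fell by 0.45 in WT-labelled and by 0.90 in KO-labelled HSCs. Its responses differed by -0.44 (SE 0.071, limma adjusted p = 0.050), and by -0.53 to -0.35 when any library was left out. Ctla2a, a gene of a cysteine protease inhibitor, had responses of 0.22 and -0.25 and a difference of -0.47 (limma adjusted p = 0.087).

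Another 3 genes near the threshold had low levels. Bpifc had 0 reads in the WT-labelled normal libraries and log2 levels between 0.20 and 2.43 in the other 7, so that its difference was -5.19 or lower with the libraries at 0 set to the floor of 3 reads (limma adjusted p = 0.071 without the floor). In Tcaf2 the WT-labelled stressed group was the one at 0 reads, with levels between 0.15 and 2.97 in the other 8 libraries and a difference of at least 4.66 at the floor (limma adjusted p = 0.071 without it). Plxnb1, a receptor gene of the plexin family, stood at -2.97 and -2.65 in WT-labelled stressed libraries and between 0.18 and 2.56 in the other 8, with a difference of 5.39 (SE 1.036, limma adjusted p = 0.095).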

How the data were processed

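Per the submitters' processing notes, Bowtie2, featureCounts and mm10 were used on the 10 libraries, with versions not given in the sources used here. The authors deposited log2 CPM values, and limma voom is named only by the deposited table. The sorted values are nearly the same in all libraries, so they had been quantile normalized, and -5.90 stands for 0 reads. Strandedness and the filter behind the 20270 genes listed are not given in the sources used here, so overlapping genes could not be told apart. Depth was estimated from the steps between tied low values (10 to 100 reads). These values are on the quantile-normalized scale, so differences in depth between libraries cannot be read from the estimate.

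The deposited log2 values were fitted with limma 3.58.1 in R 4.3.3 (4 group means, all 10 libraries, 6 residual degrees of freedom, variances moderated with a trend on the mean level, no replicate block). P-values are 2-sided and adjusted by Benjamini-Hochberg over the 11903 genes kept. A gene is called, and said to rise or fall, at an adjusted p under 0.05. The model was tested on simulated data with independent normal noise of the fitted variances. These data held no tied values, so the test does not cover effects of the quantile normalization. Gene lists (44) are described by counts and medians, with no list test. The rule names Id1, the called genes filled up to 24 by smallest p (no predicted genes), the 3 members of each list with the smallest p (not all of these are printed), and genes called in both responses with opposite sign; other genes named are members of a list past the unadjusted threshold or are named beside a result after their values were seen. Some genes that the rule names are not reported here. Members and lists were chosen with earlier results of these data known. Lengths and coordinates come from GENCODE vM21 (20199 genes matched), counted from 1, and sequences from RefSeq (GRCm38.p6). Libraries of the same replicate letter showed no shared deviations: the 13 same-letter pairs had deviations correlated between -0.05 and 0.03. With 2 or 3 libraries per group this cannot exclude a shared origin by letter. Libraries of a group had r from 0.956 to 0.979, with no duplicates. Plots were drawn with matplotlib in Python. Alternatives changed the variance moderation, the filter, the pseudocount, scaling, weights, the block, the threshold and the libraries used. The length trend and the floor of 3 reads were added after seeing the data.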

Additional observations from a re-analysis of the deposited data

Results flagged for a closer look

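The response to stress differed between genotypes by the interaction test, at a limma adjusted p under 0.05, for 7 genes. The response difference (KO-labelled minus WT-labelled, log2) was 2.49 for Fos and 0.54 for Hnrnpu. It was -0.86 for Ddx17, -0.66 for mt-Co1 and -0.82 for Gm23935. For Igkc it was 10.35, and 8.94 with its library at 0 reads at a floor of 3 reads, but the gene was kept only through the KO-labelled stressed libraries, where it is high, so its test is not read as support. For Glis3 it was at least 4.24 with its WT-labelled stressed libraries at that floor, where the adjusted p in limma was 0.15; the call (0.039) holds for the deposited values.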

How the results depend on the processing

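The number of genes called for the response difference was 7, and 16 without a trend of the variance (2 of the 7 shared), 3 and 22 with a filter at a log2 level of 0 and 4, 12 with no filter, 21 with a pseudocount of 1 CPM and 24 at an adjusted p under 0.10. It was 8 under each of the other scalings and with library weights. Leaving out single libraries gave 2 to 18. The WT-labelled response had 323 calls without the trend, 953 at an adjusted p under 0.10 and 287 to 731 with a library left out, and the KO-labelled response 440, 1149 and 285 to 749. Of the ribosomal protein genes, 36 had a negative difference at an unadjusted p under 0.05 with the length trend removed, and 49 to 69 with a library left out. The cause of these shifts was not tested.

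With the replicate block 2 genes were called, Hnrnpu and mt-Co1. Since the letters did not pair the libraries, a call lost there is not read as a smaller effect.

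Signs of the 7 called genes were kept in all alternatives run for them. The call of mt-Co1 was lost in 1 of 23 alternatives, that of Hnrnpu in 3, Fos in 7, Igkc in 12, Ddx17 in 13 and Gm23935 in 14 of 23, and that of Glis3 in 12 of 22. Medians of the ribosomal protein, respiratory chain, mitochondrial transcript and immediate early lists kept their sign in all 23. The median SE of a response difference, 0.23 on the log2 scale with 2 or 3 libraries per group, limits what could be detected.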

Other observations

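In the gene groups below no member passed the adjusted test of the response difference. The counts at an unadjusted p under 0.05 stand against 4.7% positive and 5.23% negative over all genes. Cholesterol synthesis genes fell in both, 5 of 24 kept members in WT-labelled and 7 in KO-labelled HSCs, with median responses of -0.37 and -0.45 and a median response difference of -0.14. Of 9 kept imprinted genes, 5 fell in WT-labelled and 4 in KO-labelled HSCs, with medians of -0.58 and -0.55. Igf2r, the receptor that clears IGF2, fell in WT-labelled HSCs (-1.85, limma adjusted p = 0.0026) and had a KO-labelled response of -0.49, a difference of 1.36 (limma adjusted p = 0.28). Of 24 genes of niche adhesion and homing, 2 had a positive and 2 a negative difference at an unadjusted p under 0.05. The integrin alpha chain genes Itga4 and Itga6 had differences of 0.52 and 0.51 (limma adjusted p = 0.17 and 0.18), and Vcam1, a ligand of Itga4, had -1.44 (limma adjusted p = 0.41).

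Of 20 NF-kB response genes, 3 had a negative and none a positive difference at that threshold. Without a threshold 10 were positive and 10 negative, with a median difference of -0.03. The chemokine gene Ccl4 and the NF-kB regulator gene Bcl3 fell in KO-labelled HSCs, by 1.03 and by 0.94, and each had a WT-labelled response of 0.06. Their differences were -1.09 and -1.0 (limma adjusted p = 0.28 for both). Of 25 BMP and TGF-beta pathway genes, 2 were positive and none negative. The activin receptor gene Acvr2a had a difference of 1.47 and the co-receptor gene Tgfbr3 one of 0.40, with limma adjusted p = 0.28 and 0.35. Over 21 p53 target genes the median was 0.05, and over 26 genes of DNA methylation and Polycomb it was 0.07.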
